A study of Mus musculus with 163 samples.

Results

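The 9 genes described here encode parts of the neuronal cytoskeleton and of the growing axon tip. They were chosen by name and function, with no threshold on their levels. They are the neurofilament subunits Nefl, Nefm and Nefh, the related subunit Ina, the growth cone protein gene Gap43, the stathmin genes Stmn1, Stmn2 and Stmn3, and the neuronal beta-tubulin gene Tubb3. All 9 were found by symbol among the 55291 genes of the count table. The question for each gene was whether its level differed between mutant and control in most cells or through a few cells.

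Single cochlear hair cells were picked by hand from mice at postnatal day 7 (P7) on the basis of tdTomato fluorescence, and full-length cDNA of each cell was sequenced. Controls had the genotype Atoh1P2A-Tdtomato/+, and gave 43 outer hair cells (Ctrl OHC) and 38 inner hair cells (Ctrl IHC). Mutants were Atoh1P2A-Cre/P2A-Tdtomato and Rbm24flox/flox, and gave 56 outer (Exp OHC) and 26 inner (Exp IHC) hair cells that lack the RNA-binding protein Rbm24. Cre is driven from the Atoh1 locus, which acts in hair cells and in other Atoh1 lineages. Both Atoh1 alleles are modified in mutants and 1 in controls, so Cre and the second modified allele cannot be told apart from the loss of Rbm24. No label names an animal, so each group counts as 1 sample, cells are not replicates, and no test was made. What decided whether a cell was called inner or outer is not given in the sources used here.

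Neurofilaments are heteropolymers of a light, a medium and a heavy subunit, often with alpha-internexin, and they set the calibre of axons. Gap43 is a membrane-attached protein of growth cones, and stathmins bind tubulin dimers and promote the disassembly of microtubules. In the cochlea these genes are best known from the spiral ganglion neurons, whose fibres end on the hair cells.

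Total counts ranged from 5467115 to 18072166 per cell. Mutant cells were sequenced more deeply, with median totals of 9.09e+06 in Ctrl OHC and 1.28e+07 in Exp OHC. In the inner groups these were 8.67e+06 in Ctrl IHC and 1.42e+07 in Exp IHC. Levels are counts per 1000000 (CPM), either per cell or summed over the cells of a group. Rbm24 itself was at 315 CPM in Ctrl OHC and 0.21 in Exp OHC, and at 431 CPM in Ctrl IHC and 1.51 in Exp IHC. Hair cell markers were present in every group, with a median summed level of 21379 to 24502 CPM per cell. Of the 43 Ctrl OHCs, 1 was under 10 CPM in Slc26a5, Ocm and Ikzf2, genes that mark outer hair cells, and values without it are given where they change a call. Outer hair cell markers were lower in Exp OHC, with a median sum of 841 CPM against 7197 in Ctrl OHC, so the label of the mutant outer cells rests on the submitters. The mix of sexes differed, since Y-linked transcripts in the absence of Xist were found in 32 of 43 control and 16 of 56 mutant outer cells, and in 26 of 38 control and 7 of 26 mutant inner cells. Values within each sex are given below where they differ from the pooled ones.

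Of the 9 genes, 3 had a promoter in the RefSeq table for GRCm38.p6, and up to 250 bases of each are shown. E-boxes, the letters CANNTG read by basic helix-loop-helix factors such as Atoh1 and Neurod6, can be looked for in them. The bases of Stmn3 and Tubb3 end next to the annotated start. Those of Ina end at 47014680, short of its annotated start at 47014698. The capitals mark the E-boxes. The windows are chr2:181314501-181314750 on the minus strand for Stmn3, chr19:47014431-47014680 on the plus strand for Ina and chr8:123411303-123411423 on the plus strand for Tubb3. They are printed 5′ to 3′ along the gene's strand.
Stmn3: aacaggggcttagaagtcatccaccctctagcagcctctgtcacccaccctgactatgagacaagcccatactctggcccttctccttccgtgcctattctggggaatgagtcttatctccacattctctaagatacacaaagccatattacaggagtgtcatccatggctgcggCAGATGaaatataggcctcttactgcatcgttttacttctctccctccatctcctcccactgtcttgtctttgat
Ina: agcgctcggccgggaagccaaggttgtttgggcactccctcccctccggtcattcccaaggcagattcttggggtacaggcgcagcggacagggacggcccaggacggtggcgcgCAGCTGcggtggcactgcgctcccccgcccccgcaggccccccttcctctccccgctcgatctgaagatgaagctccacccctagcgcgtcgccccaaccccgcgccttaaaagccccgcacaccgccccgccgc
Tubb3: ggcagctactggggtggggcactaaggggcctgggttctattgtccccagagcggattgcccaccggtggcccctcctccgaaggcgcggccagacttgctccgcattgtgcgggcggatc
Stmn3 and Ina, which were present in most hair cells, each held 1 E-box (CAGATG in Stmn3 and CAGCTG in Ina), and the 121 bases of Tubb3 held none. CANNTG reads the same on both strands. Of 32851 RefSeq windows of 250 bases, 66.2% held at least 1 such match, and of their first 121 bases 42.1% did.

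Nefm, the medium neurofilament subunit (chromosome 14, 68082590 to 68124846, minus strand, GRCm38), was higher in nearly all mutant cells of both types. In Ctrl OHC its lowest cell was at 0, its median at 54.8 and its highest at 344 CPM. In Exp OHC the lowest cell was at 24.9, the median at 347 and the highest at 797 CPM. The groups overlapped only in part: 29 of 56 Exp OHCs lay above the highest Ctrl OHC, and 0 of 43 Ctrl OHCs lay above the Exp OHC median. The summed level was 78.3 CPM in Ctrl OHC and 351 in Exp OHC, a log2 ratio of 2.17 (95% interval 2.15 to 2.18, counting error only). In inner hair cells the lowest, median and highest cells were at 0.14, 136 and 577 CPM in controls and at 87.7, 461 and 1683 CPM in mutants. The summed level was 153 CPM in Ctrl IHC and 522 in Exp IHC, a log2 ratio of 1.77 (1.76 to 1.79). When every mutant cell was paired with every control cell of its type, the mutant cell was higher in 93.6% of OHC pairs and 92.3% of IHC pairs. In these shares, here and below, tied pairs do not count as higher. The highest cell held 4.58% of the Nefm counts of Exp OHC and 9.48% of those of Exp IHC, so the difference did not come from single cells. Within the cells with Y-linked transcripts alone the log2 ratio was 2.48 in OHCs and 1.55 in IHCs, and within those with Xist alone it was 1.68 and 1.64. All 82 mutant cells were at 10 CPM or more, as were 36 of 43 Ctrl OHCs and 34 of 38 Ctrl IHCs.

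Nefl, the light subunit on which neurofilament assembly depends (chromosome 14, 68083863 to 68089095, plus strand), was likewise higher across the mutant outer cells, and less so in the inner cells. Its lowest, median and highest cells were at 0, 84.4 and 542 CPM in Ctrl OHC and at 0.10, 263 and 657 CPM in Exp OHC. The ranges overlapped, with 3 Exp OHCs above the highest control, while 50 of 56 lay above the control median. The summed level was 103 CPM in Ctrl OHC and 292 in Exp OHC (log2 ratio 1.50, 1.49 to 1.52), and the mutant cell was higher in 84.3% of pairs. In Ctrl IHC the lowest, median and highest cells were at 153, 355 and 624 CPM, and in Exp IHC at 189, 567 and 1034.5 CPM. The inner-cell ratio was 0.61 (0.60 to 0.62) on the log2 scale, short of 2-fold, although the mutant cell was higher in 79.5% of pairs and 10 of 26 Exp IHCs lay above the highest control. Among cells with Y-linked transcripts alone the OHC and IHC ratios were 1.62 and 0.45, and with Xist alone 1.36 and 0.69. The order of the summed Nefl levels ran from Ctrl OHC through Exp OHC and Ctrl IHC to Exp IHC, and an Exp OHC was above a Ctrl IHC in 33.4% of pairs. For Nefm the middle places were exchanged: Exp OHC stood above Ctrl IHC (351 against 153 CPM), and an Exp OHC was the higher in 83.8% of pairs. Cells of all neighbouring groups in both orders overlapped.

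The balance of light to medium subunit was lower in the mutants of both cell types. Summed Nefl counts were 1.32 times those of Nefm in Ctrl OHC and 0.83 times in Exp OHC, and 2.46 times in Ctrl IHC and 1.10 times in Exp IHC. Nefl was the higher of the pair in 25 of 43 Ctrl OHCs and 22 of 56 Exp OHCs, and in 34 of 38 Ctrl IHCs and 16 of 26 Exp IHCs. These counts are not scaled for transcript length. Per kilobase of exon, the summed level in outer cells was 30.5 CPM (control) and 86.3 (mutant) for Nefl and 13.5 and 60.7 for Nefm. In inner cells it was 111 and 170 for Nefl and 26.4 and 90.3 for Nefm. By this measure Nefl was the higher of the pair in every group. It divides by the merged exons of all annotated transcripts, 3.38 kilobases for Nefl and 5.782 for Nefm. Which transcripts the cells held was not tested, and the order of the pair depends on these lengths. The genes overlap on opposite strands over 1108 exonic bases (32.8% of the exonic bases of Nefl and 19.2% of those of Nefm), and the strand setting of the counting is not given in the sources used here. Reads from that stretch cannot be told apart by gene.

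**Figure D1:**
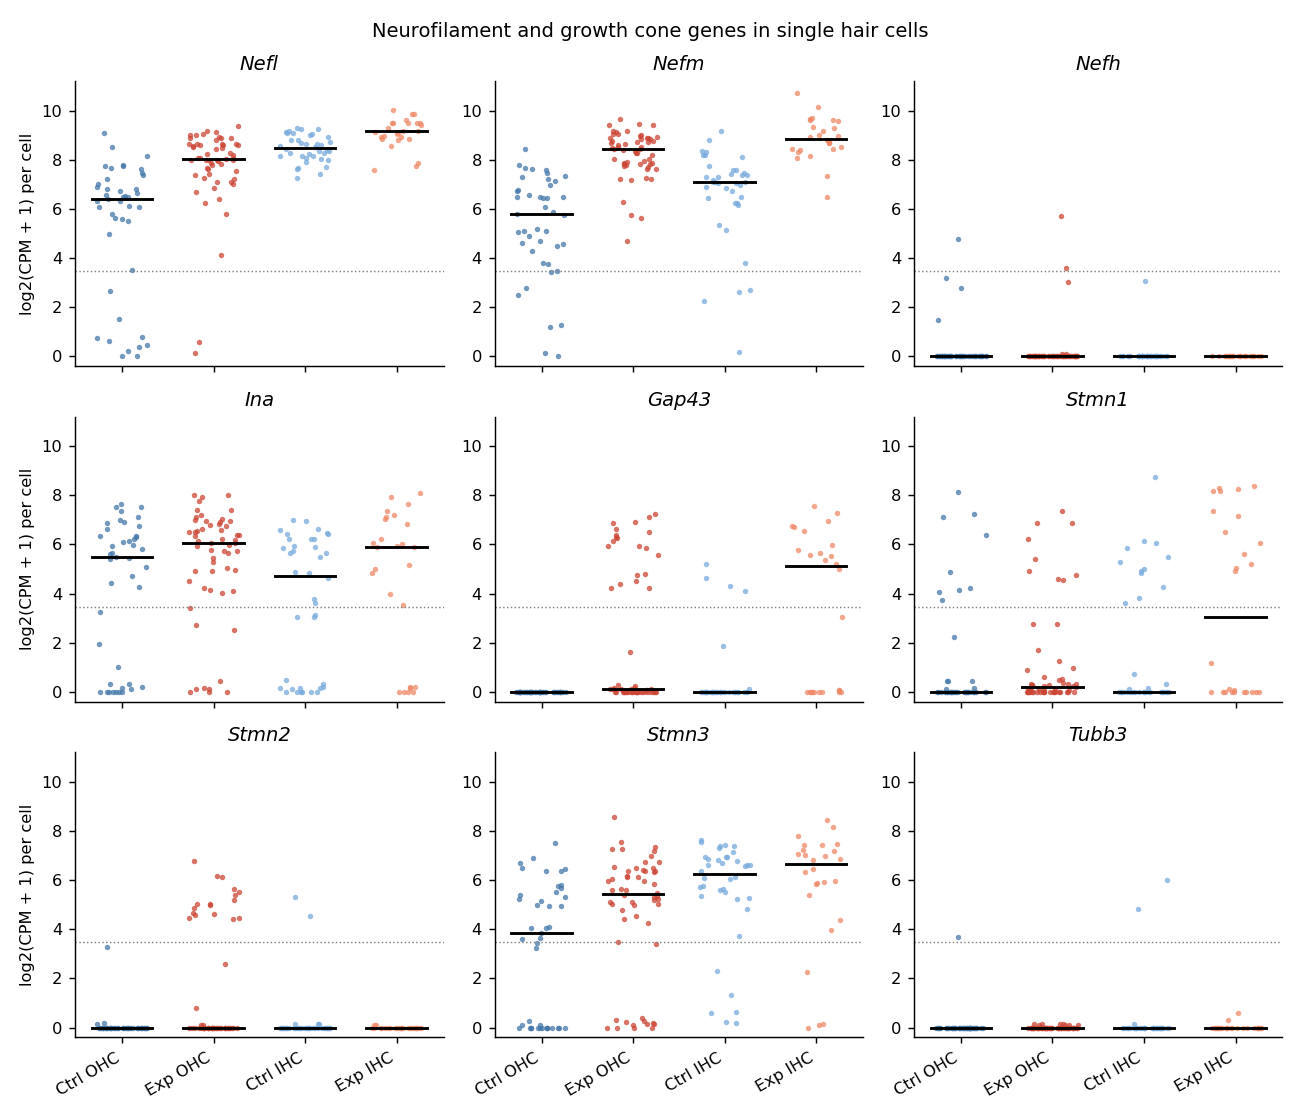
Level of each gene in every cell, as log2(CPM + 1), in the 4 groups; a point is a cell, the black line the group median and the dotted line 10 CPM. Nefl and Nefm shift as whole clouds, Gap43 and Stmn2 appear in a fraction of mutant cells above a large set at or near 0, and Nefh and Tubb3 are near 0 in nearly all cells.

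Ina, which encodes alpha-internexin and co-assembles with the neurofilament subunits (chromosome 19, 47014698 to 47025327, plus strand), differed less. Its lowest, median and highest cells were at 0, 43.4 and 198 CPM in Ctrl OHC and at 0, 65.5 and 260.04 CPM in Exp OHC. In the inner cells they were at 0, 25.5 and 127 CPM in controls and at 0, 58.2 and 273 CPM in mutants. Every group spanned from 0 to over 100 CPM, and the groups overlapped over most of that span. The summed levels gave a log2 ratio of 0.53 (0.51 to 0.55) in OHCs and 0.88 (0.85 to 0.91) in IHCs, and a mutant cell was the higher in 59.7% and 59.9% of pairs. Among cells with Y-linked transcripts alone the IHC ratio was -0.06, so the direction in inner cells was not kept in that set, while among those with Xist alone it was 1.25, past 2-fold. Of the exonic bases of Ina, 14.1% are shared with Nt5c2 on the opposite strand.

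Nefh, the heavy subunit that marks mature large-calibre axons (chromosome 11, 4938754 to 4948064, minus strand), had a median of 0 CPM in all 4 groups. It reached 10 CPM in 1 of 43 Ctrl OHCs and 2 of 56 Exp OHCs and in no inner hair cell. The highest cells were at 26.2 CPM in Ctrl OHC, 51.3 in Exp OHC and 7.39 in Ctrl IHC, and Exp IHC had 0 counts. A single cell held 67.0% of the counts of Ctrl OHC and 71.6% of those of Exp OHC. The log2 ratio of 0.55 (0.37 to 0.72) in OHCs therefore described a few cells, and it was -2.56 without the 2 Exp OHCs. Those 2 cells carried the highest Stmn1 levels of the 56 Exp OHCs (116 and 165 CPM), and the highest levels of Neurod6, a neuronal helix-loop-helix factor (606 and 1021 CPM). Both had Gap43 (139 and 60.5 CPM), and neither had any count of Slc26a5, Stmn2 or Tubb3. Of the hair cell genes, Myo6 stood at 1969 and 2346 CPM in them against a median of 2562. Pou4f3, a hair cell transcription factor, was at 102 and 517 CPM against a median of 487. Calb1, the calbindin gene, was lowest of the 56 cells in these 2, at 3770.2 and 2336 CPM against a median of 13027. Prph and Slc17a7, which mark spiral ganglion neurons, were at 0, as in all 56 Exp OHCs, so they do not set these 2 cells apart. Snap25, a neuronal gene that hair cells also express, was at 348 and 107 CPM against a median of 141. The 2 cells were picked out after their values were seen.

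Gap43 (chromosome 16, 42248442 to 42340651, minus strand) differed through a fraction of the cells, and most of the others lay at or near 0. It had 0 counts in all 43 Ctrl OHCs, so a share of up to 6.98% is allowed if 3 cells are taken as the floor (exact binomial upper limit 8.22%). In Exp OHC the lowest cell was at 0, the median at 0.09 and the highest at 152 CPM. It reached 10 CPM in 20 of 56 Exp OHCs (35.7%, exact binomial interval 23.4% to 49.6%), whose own median was 65.1 CPM. Of the 36 cells under 10 CPM, 24 had 0 counts. The summed level of 25.7 CPM was at least 3419.9-fold higher than the floor of 3 counts over Ctrl OHC, a log2 bound of 11.74. The 6 highest of the 56 cells held 53.8% of the counts. The Exp OHC was the higher in 57.1% of pairs and tied in 42.9%, all at 0.

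In inner hair cells Gap43 was already present in a few controls. The lowest, median and highest cells were at 0, 0 and 36.04 CPM in Ctrl IHC and at 0, 33.6 and 189 CPM in Exp IHC. It reached 10 CPM in 4 of 38 Ctrl IHCs (10.5%, 2.94% to 24.8%) and 14 of 26 Exp IHCs (53.8%, 33.4% to 73.4%). The summed level was 2.37 CPM in Ctrl IHC and 41.6 in Exp IHC, a log2 ratio of 4.13 (4.03 to 4.24). The positive cells also differed in level, with medians of 21.2 CPM in controls and 58.3 in mutants. Thus both the share of cells and the level in them were higher in mutants. The Exp IHC was the higher in 63.7% of pairs and tied in 29.1%. Among cells with Y-linked transcripts alone Gap43 reached 10 CPM in 7 of 16 Exp OHCs and 4 of 7 Exp IHCs, and among those with Xist alone in 10 of 37 and 10 of 19. No Ctrl OHC of either sex had a count.

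**Figure D2:**
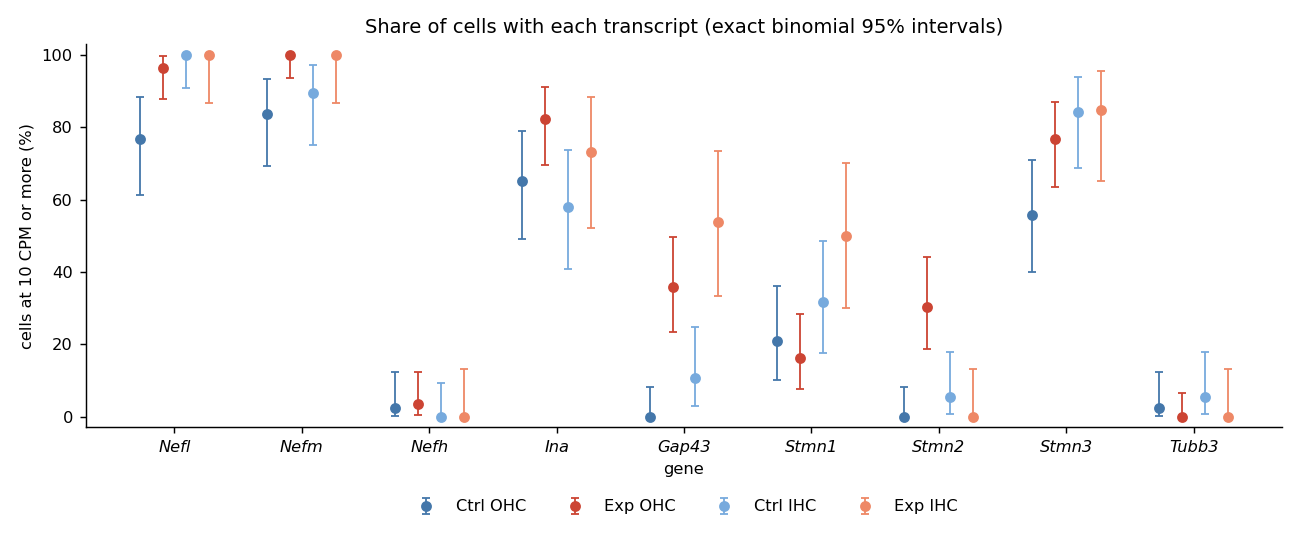
Percent of cells at 10 CPM or more for each gene and group, with exact binomial 95% intervals. The intervals take cells as independent draws and do not cover the spread between animals, whose number is unknown. Gap43 stands at 0% of control and 35.7% of mutant outer cells, and at 10.5% of control and 53.8% of mutant inner cells, and Stmn2 at 30.4% in Exp OHC and at or near 0% elsewhere.

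Stmn2, a membrane-anchored stathmin of growing neurites also known as SCG10 (chromosome 3, 8509360 to 8561606, plus strand), was seen in a fraction of the mutant outer cells and was near 0 in mutant inner cells. In Ctrl OHC the median was 0 and the highest cell stood at 8.57 CPM, with 97.7% of the counts of that group in it. In Exp OHC the lowest cell and the median were at 0 and the highest at 109 CPM, and 17 of 56 cells (30.4%, 18.8% to 44.1%) reached 10 CPM. The summed level was 0.22 CPM in Ctrl OHC and 12.1 in Exp OHC, a log2 ratio of 5.79 (5.49 to 6.11). When each group lost its highest cell the ratio was 11.00, since nearly all the control counts came from 1 cell. By sex, 9 of 16 Exp OHCs with Y-linked transcripts alone and 8 of 37 with Xist alone reached 10 CPM. In inner cells the order was opposite: 2 of 38 Ctrl IHCs reached 10 CPM (at 22.4 and 38.5), and all 26 Exp IHCs together had 2 counts. That log2 ratio was -8.04 (-11.09 to -6.18), and a share of 0 of 26 cells allows up to 11.5% with 3 cells as the floor (exact binomial upper limit 13.2%). Both of these Ctrl IHCs were among the 12 with Xist alone, where the log2 ratio was -10.41. With Y-linked transcripts alone no cell of 26 Ctrl IHCs or 7 Exp IHCs reached 10 CPM, and the summed levels were 0.012 and 0.0099 CPM, so the inner-cell difference was not seen in that set.

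Gap43 and Stmn2 did not mark one set of Exp OHCs. Stmn2 reached 10 CPM in 5 of the 20 cells with Gap43 and in 12 of the 36 without, and Spearman's rho over the 56 cells was -0.07, a description of cells that share an unknown number of animals. Neurod6 was at 10 CPM or more in 12 of the 20 cells with Gap43 and 6 of the 36 without. For Insm1, a zinc-finger repressor, the same counts were 9 of 20 and 16 of 36. Stmn3 was at 10 CPM or more in 19 of 20 cells with Gap43 and 24 of 36 without, and the median Nefm was 474 CPM against 297. In Exp IHC, where Neurod6 and Insm1 reached 10 CPM in no cell, Stmn1 did so in 10 of the 14 cells with Gap43 and 3 of the 12 without.

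**Figure D3:**
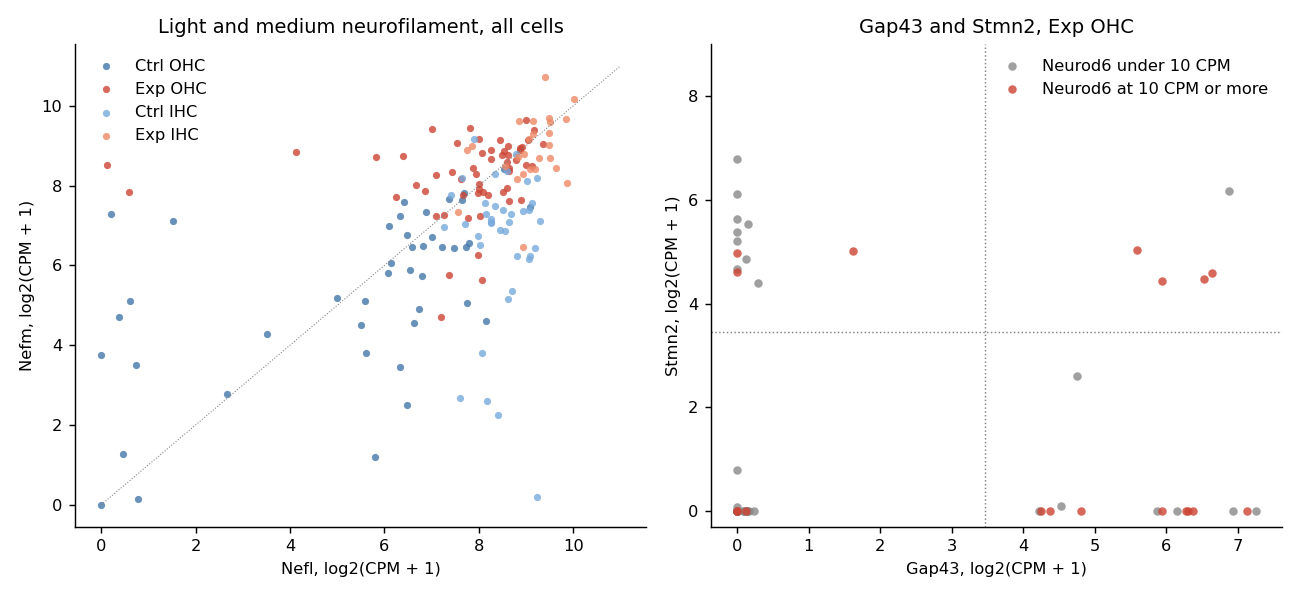
Left, Nefm against Nefl in every cell as log2(CPM + 1), by group, with the line of equal level; right, Stmn2 against Gap43 in the 56 Exp OHCs, coloured by Neurod6, with dotted lines at 10 CPM. Of the 20 Exp OHCs with Gap43, 5 also had Stmn2, and 12 had Neurod6.

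Stmn3, a second membrane-anchored stathmin (chromosome 2, 181306459 to 181314500, minus strand), was widely present. Its lowest, median and highest cells were at 0, 13.4 and 182 CPM in Ctrl OHC and at 0, 42.02 and 375 CPM in Exp OHC. In the inner cells they were at 0.13, 74.9 and 197 CPM in controls and at 0, 99.6 and 347 CPM in mutants. The outer groups overlapped, with 42 of 56 Exp OHCs above the control median, and the inner groups overlapped almost wholly, with 15 of 26 above it. The summed level gave a log2 ratio of 0.95 (0.92 to 0.98) in OHCs and 0.33 (0.30 to 0.35) in IHCs. Among cells with Xist alone these were 0.21 and -0.19, and among those with Y-linked transcripts alone 0.87 and 0.94. Without the 1 Ctrl OHC that lacked outer hair cell markers the OHC ratio was 1.07, past 2-fold. Stmn3 stood at 10 CPM or more in 24 of 43 control and 43 of 56 mutant outer cells, and in 32 of 38 control and 22 of 26 mutant inner cells.

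Stmn1, the ubiquitous cytosolic stathmin (chromosome 4, 134468320 to 134473843, plus strand), was patchy in all groups. In Ctrl OHC the lowest cell and the median were at 0 and the highest at 277 CPM, and in Exp OHC the median was 0.15 and the highest cell 165 CPM. It reached 10 CPM in 9 of 43 Ctrl OHCs (20.9%) and 9 of 56 Exp OHCs (16.1%), and had 0 counts in 28 and 21 of them. A cell with a few reads counts as higher than a cell at 0 in the pair shares. The part of the greater depth of the mutant cells in those shares was not tested. The summed log2 ratio in OHCs was -0.27 (-0.32 to -0.22), while the mutant cell was the higher in 47.9% of pairs, the lower in 27.7% and tied in 24.4%. That ratio was -1.19 among cells with Y-linked transcripts alone and -0.30 among those with Xist alone, and -1.16 without the 2 Exp OHCs with Nefh described above. In inner hair cells the median was 0 in controls and 15.4 CPM in mutants, the highest cells were at 428 and 330 CPM, and 12 of 38 and 13 of 26 cells reached 10 CPM. The inner log2 ratio was 1.98 (1.94 to 2.02). Both the share of positive cells (31.6% and 50.0%) and their median level (34.8 and 140.4 CPM) were higher in mutants. That ratio was 0.43 among cells with Xist alone and 3.75 among those with Y-linked transcripts alone, and 2.69 when each group lost its highest cell, since 1 Ctrl IHC held 48.0% of the control counts. Stmn1 has a near-identical copy, Gm11223 (97.6% over 460 bases), between which reads may be split.

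Tubb3, the beta-tubulin isotype used as a marker of neurons (chromosome 8, 123411424 to 123422015, plus strand), was at or near 0 in nearly all cells. The median was 0 in all groups, and it reached 10 CPM in 1 Ctrl OHC (11.8 CPM) and in 2 Ctrl IHCs (27.1 and 62.8 CPM). No mutant cell was above 0.50 CPM. All Exp OHCs together had 8 counts and all Exp IHCs 12. The log2 ratios of -4.48 (-5.73 to -3.45) and -6.04 (-7.00 to -5.23) came mostly from those 3 control cells.

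Taking the 9 genes as a list, 8 passed a filter of 1 CPM in the mean of both outer groups (Tubb3 did not), and 4 of them, Nefl, Nefm, Gap43 and Stmn2, were higher in Exp OHC by 2-fold or more. Over all 14588 genes that passed, 18.4% were higher by 2-fold or more. None of the 8 was lower by 2-fold or more, against 13.1% of all genes. In 75% or more of cell pairs the mutant cell was the higher for 2 members, Nefl and Nefm, where 2.93% of all genes reached that share. In IHCs 7 passed (Nefh and Stmn2 did not), and 3, Nefm, Gap43 and Stmn1, were higher by 2-fold or more, against 18.8% of all 14557 genes. Tubb3 was lower by 2-fold or more, against 11.7% of all genes. Nefl and Nefm were again the members higher in 75% or more of pairs, which 2.53% of all genes reached. The median log2 ratio of the members that passed was 1.23 in OHCs and 0.88 in IHCs, beside 0.06 and 0.11 over all genes. The filter admits a gene through the group where it is high, so these counts and medians describe the list and support nothing further. The 4 widely present members, Nefl, Nefm, Ina and Stmn3, were together at 10 CPM or more in 12 of 43 control and 36 of 56 mutant outer cells, and in 15 of 38 control and 16 of 26 mutant inner cells.

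**Figure D4:**
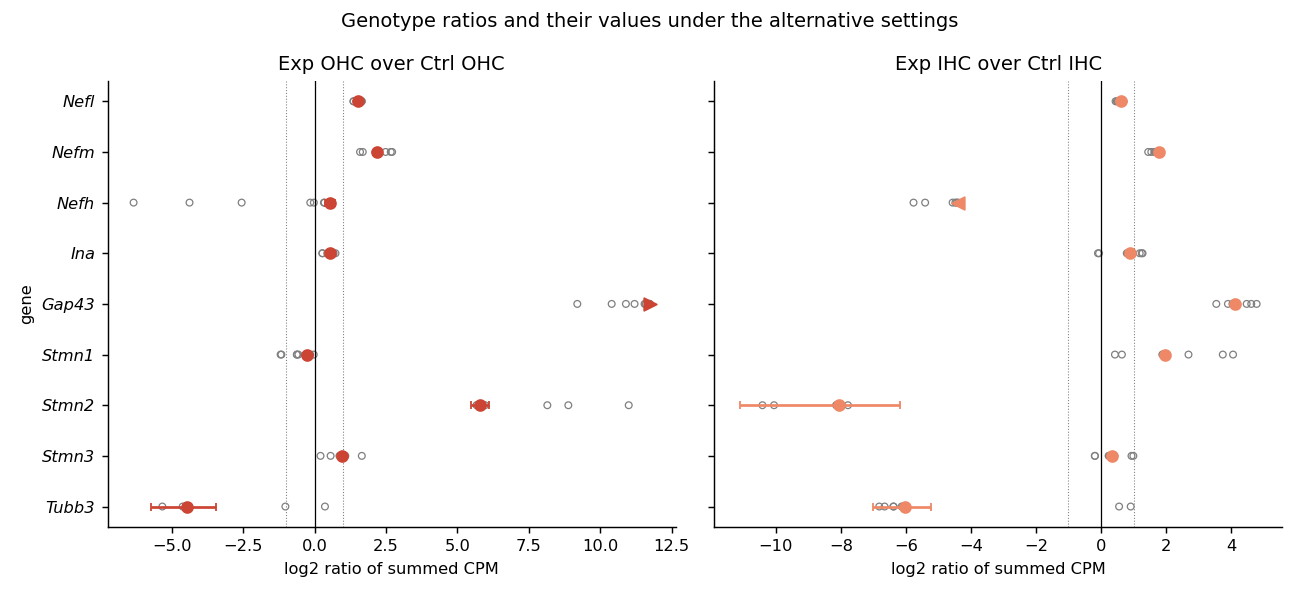
Log2 ratio of the summed level, mutant over control, for each gene in outer (left) and inner (right) hair cells. Filled points are the reported values with counting intervals, and triangles are bounds against a floor of 3 counts. Open circles are the values under the alternative settings, and dotted lines mark 2-fold. Nefl, Nefm, Gap43, Stmn1 and Stmn2 keep their side of 0 within each panel, though Stmn1 spreads widely in inner cells. Nefh in the left panel, Ina and Stmn3 in the right panel and Tubb3 in both cross 0 under some settings.

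Of 29 further genes of growth cones and neurite growth, 23 passed the filter in OHCs, of which 7 were higher and 2 lower by 2-fold or more, with a median log2 ratio of 0.63. In IHCs 24 passed, with 8 higher, 2 lower and a median of 0.70. Over all genes, as above, 18.4% were higher and 13.1% lower by 2-fold or more in OHCs, and 18.8% and 11.7% in IHCs. Cap2, a cyclase-associated protein that acts on actin filaments, was at 16.8 CPM in Ctrl OHC and 95.9 in Exp OHC, and at 12.6 and 145 in the inner groups, and the mutant cell was the higher in 85.1% and 95.4% of pairs. Other genes of the list were lower in mutants, on the counts of a few control cells. Dcx, which binds microtubules in migrating neurons, was at 4.27 CPM in Ctrl OHC, where 3 of 43 cells reached 10 CPM, and had 3 counts in all Exp OHCs. Basp1, a growth cone protein similar in function to Gap43, was at 3.30 CPM in Ctrl IHC and 0 in Exp IHC, and all of those counts lay in 1 of the 38 Ctrl IHCs. Gpm6b, a membrane glycoprotein, differed in opposite directions, at 0.09 and 3.06 CPM in Ctrl and Exp OHC and at 4.40 and 0.40 in Ctrl and Exp IHC, but it reached 10 CPM in only 2 of 56 Exp OHCs and 2 of 38 Ctrl IHCs. A single cell held 73.3% of the Exp OHC counts and 62.6% of the Ctrl IHC counts.

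Of 14 tubulin genes, all of which passed, 1 was higher and 3 were lower by 2-fold or more in each cell type. Over all genes 18.4% were higher and 13.1% lower in OHCs, and 18.8% and 11.7% in IHCs. The median log2 ratios of the tubulin genes were 0.07 in OHCs and -0.12 in IHCs. Tuba8, an alpha-tubulin, was at 104 CPM in Ctrl OHC and 6.22 in Exp OHC, and at 212 and 41.2 in the inner groups. Tubb2a, a beta-tubulin of neurons, was at 32.4 CPM in Ctrl IHC and 6.72 in Exp IHC. Of 28 microtubule-associated genes 27 passed, with 3 higher and 3 lower in OHCs and 4 higher and 1 lower in IHCs, and medians of 0.10 and 0.13. These counts stand beside the same shares of all genes. Map1a, a microtubule-associated protein of mature neurites, was at 0.02 CPM in Ctrl OHC and 3.61 in Exp OHC, where 3 of 56 cells reached 10 CPM. Mapt, which encodes tau, was at 2.93 and 0.01, and 2 of 43 Ctrl OHCs reached 10 CPM. Of 9 other intermediate filament genes, 3 passed in OHCs, with 1 higher and 0 lower by 2-fold or more (median log2 ratio 0.996). In IHCs 4 passed, with 1 higher and 1 lower (median -0.37), again beside the same shares of all genes. Vim, the vimentin gene, was the lower one, at 10.7 CPM in Ctrl IHC and 1.26 in Exp IHC. Lmna, a nuclear lamin, stood at 9.63 CPM in control outer cells and 29.2 in mutant ones, and Prph, the peripherin gene of sensory axons, had 0 counts in all 4 groups.

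**Figure D5:**
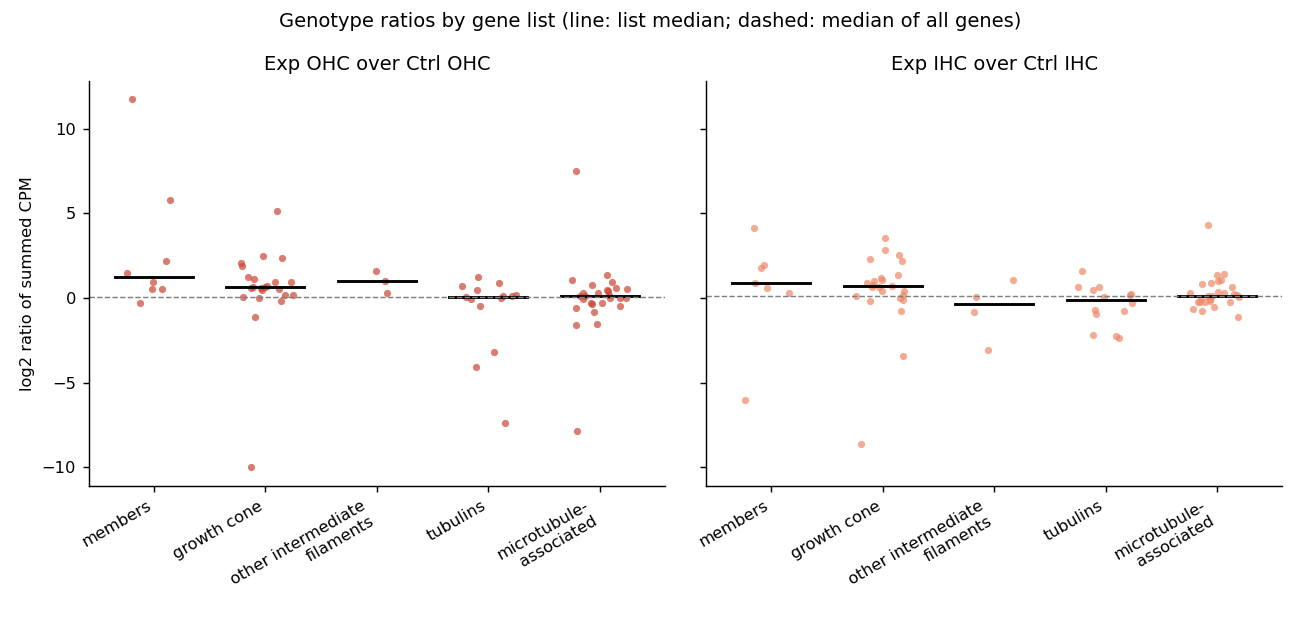
Log2 ratio of the summed level, mutant over control, for the genes of each list that passed the filter, in outer (left) and inner (right) hair cells. A point is a gene (bounds against the floor of 3 counts included), the black line the list median (1.23 for the members in OHCs and 0.88 in IHCs) and the dashed line the median of all genes (0.06 and 0.11).

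Markers of neurons were measured beside these genes, since fibres touch the hair cells. The summed level of 17 neuronal markers had a median of 337 CPM per cell in control outer cells (129.6 to 699.6) and 427 in mutant ones (20.3 to 1236), and of 301 in control inner cells (115 to 579) and 464 in mutant ones (159 to 903). Most of it came from Snap25 and Isl1, which hair cells express, and from Calca in Exp OHC. Prph, Scn9a and Nrn1 were at 0 in all groups, and Slc17a7, the vesicular glutamate transporter of spiral ganglion neurons, had 1 count in all 163 cells. Thy1 and Ntrk2 were higher in Exp OHC (15.8 and 11.6 CPM, against 0 and 0.01 in Ctrl OHC). Of the 17 markers, 7 passed the filter, of which 4 were higher by 2-fold or more in Exp OHC (median log2 ratio 1.97) and 1 in Exp IHC (0.55). Over all genes 18.4% were higher by 2-fold or more in OHCs and 18.8% in IHCs. The filter admits a marker through the group where it is high, so these counts describe the list only. Within Exp OHC, Thy1 reached 10 CPM in 3 of 20 cells with Gap43 and 11 of 36 without, and Ntrk2 in 0 of 20 and 10 of 36. Cnp, a gene of myelinating glia that hair cells of all groups also held, was at 104 CPM in Ctrl OHC and 330.2 in Exp OHC, and at 156 and 501 CPM in the inner groups. Of 14 supporting cell markers 10 passed, with 2 higher and 3 lower by 2-fold or more in OHCs (median -0.27) and 8 lower in IHCs (median -9.59, with bounds included). Over all genes 13.1% were lower by 2-fold or more in OHCs and 11.7% in IHCs. Per cell the summed level of the supporting cell markers had a median of 2202 CPM in control and 332 in mutant outer cells. Most of that sum came from 1 gene, S100a1, at 2092 CPM in Ctrl OHC and 355 in Exp OHC over all cells. In the inner groups the median sum was 2642 and 2869 CPM, so it did not follow the 8 markers that were lower. The other 2 were higher in Exp IHC, by less than 2-fold. The part of other cells' RNA in the differences was not tested.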

How the data were processed

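The authors deposited 1 table of raw read counts, by gene and cell, made without molecular identifiers. The submitters' processing notes name the mm10 build and the tools featureCounts 2.0.1, HISAT2 2.2.1 and SAMtools. The annotation release and strand setting are not given in the sources used here. Identifiers were matched without version to GENCODE M21 (GRCm38), and 55034 of 55291 (99.5%) had a name.

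Each group's cells were added up and expressed per 1000000 (CPM) with Python 3.11.15, pandas 2.3.3 and scipy 1.17.1. Log2 ratios have exact conditional binomial 95% intervals and shares of cells at 10 CPM or more have exact (Clopper-Pearson) ones. Reads are not independent molecules, so intervals of ratios and the floor of 3 counts (0.00416 to 0.00861 CPM over a group) cover counting error only. Intervals of shares take cells as independent draws and do not cover the spread between animals. A share of cell pairs counts those in which the first cell is strictly higher. Calls are past 2-fold among genes whose mean over both groups reached 1 CPM. No p-value was computed, with 1 sample per group. Scripts were tested on simulated data.

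The text names all 9 members, the 3 genes ordered most like each of the 6 members at 10 CPM or more in at least 25% of Exp OHCs, and genes from the 3 largest ratios of each wider list; the cells singled out were chosen after their values were seen. The members and lists were chosen with earlier results of these data known. Alternatives were TMM factors (edgeR 4.0.16), totals without mitochondrially encoded genes, means or medians of cells, other filters and thresholds, cells thinned to 5467115 counts, and subsets of cells.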

Additional observations from a re-analysis of the deposited data

Results flagged for a closer look

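For 3 genes the genotype ratio had opposite directions in outer and inner hair cells, with 1 sample per group, so the difference was not tested. Stmn2 was higher in Exp OHC (log2 ratio 5.79) and lower in Exp IHC (-8.04), a difference of 13.83. In IHCs Stmn2 did not pass the filter, and only 2 of 38 Ctrl IHCs reached 10 CPM. With Y-linked transcripts alone its summed levels were 0.012 CPM in Ctrl IHC and 0.0099 in Exp IHC. Stmn1 was slightly lower in Exp OHC (-0.27) and higher in Exp IHC (1.98), a difference of -2.25. Nefh was higher in Exp OHC (0.55) and lower in Exp IHC, a bound of -4.39 since Exp IHC had 0 counts. The difference of at least 4.93 rests on 1013, 385 and 60 counts in Exp OHC, Ctrl OHC and Ctrl IHC. Nefh did not pass the filter in IHCs. Its OHC ratio was -6.34 with Y-linked transcripts alone and -0.15 with Xist alone, so it was not higher in Exp OHC in either set.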

How the results depend on the processing

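The number of members higher by 2-fold or more was 3 to 5 in OHCs (4 as reported) and 3 in IHCs under all alternatives run, though not always the same 3: with Xist alone and high in Gm15772, Stmn1 fell short of 2-fold (0.43 and 0.64) and Ina passed it (1.25 and 1.28). It was 3 with a filter of 10 CPM, and 5 without the 1 Ctrl OHC that lacked outer hair cell markers. Of the single ratios under alternatives, 96 of 102 in OHCs and 74 of 80 in IHCs kept their direction. Tubb3 changed sign in OHCs without the highest cell of each group (0.36), and in IHCs among cells with Xist alone (0.56) and among cells high in the pseudogene Gm15772 (0.91), by which all groups split into sets. Nefh in OHCs was -6.34 among cells with Y-linked transcripts alone, -0.15 with Xist alone, -4.38 and -0.03 in cells low and high in Gm15772, and -2.56 without the 2 Exp OHCs with Nefh, an alternative chosen after seeing the data. Ina in IHCs was -0.06 and -0.09 in cells with Y-linked transcripts alone and low in Gm15772, and Stmn3 in IHCs was -0.19 both with Xist alone and high in Gm15772. The cause was not tested. Thinning moved no share of cells by more than 1.79 percentage points. No paired analysis was possible because the results come from no test and the numbers that groups share only name cells. With 3 cells as the floor, the number of cells limits a share of 0 to between 5.36% and 11.5%. The exact binomial upper limits run from 6.38% in Exp OHC to 13.2% in Exp IHC. The number of animals behind each group is unknown.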

Other observations

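Some cells reached 10 CPM in only 1 of the neurofilament genes Nefl and Nefm. Nefl was under 10 CPM in 10 Ctrl OHCs, of which 6 had Nefm at 10 CPM or more, and in 2 Exp OHCs, which stood at 0.52 CPM or less for Nefl and at 230 and 364 CPM for Nefm. Nefm was under 10 CPM in 7 Ctrl OHCs, of which 3 had Nefl at 10 CPM or more, and in 4 Ctrl IHCs, all of which had Nefl, at 194 to 602 CPM. The part of transcripts missed in single cells, or of reads from the bases that both genes share, was not tested.

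Of the 56 Exp OHCs, 3 fell in neither set by sex, and all 3 had both Gap43 and Neurod6 at 10 CPM or more. Among 8768 genes at 10 CPM or more in 25% or more of the Exp OHCs, those ordered most like Gap43 over the 56 cells were the non-coding gene Gm32585 (Spearman's rho 0.63), Ralyl, an RNA-binding protein gene (0.62), and Psph, the last enzyme of serine synthesis (0.62). For Nefm they were Tspan17 (0.52), Hip1r (0.52) and Ssbp4 (0.49), and for Nefl Lnx2 (0.57), Pdlim7 (0.53) and Pitpna (0.51). For Stmn2 they were Hist3h2a (0.55), Epc2 (0.50) and Tgs1 (0.49), for Stmn3 Gpn1 (0.54), Ptdss1 (0.49) and Eif3d (0.47), and for Ina Plpp6 (0.52), Wbp1 (0.45) and Brf2 (0.45). Each is among the highest of 8768 values, over cells that differ in depth and share an unknown number of animals.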
